A study of Homo sapiens with 12 samples.

Results

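Human embryonic stem cells (hESCs) that did not express MEG3 were set against hESCs that did, over both stem cell lines of the series. The MEG3-OFF side held 7 of the 12 arrays: 5 of MEG3-OFF NTU1 cells (replicates 5 to 9) and 2 of H9 cells, which carry the same MEG3-OFF label (replicates 1 and 2). The MEG3-ON side held 4 arrays of MEG3-ON NTU1 cells (replicates 1 to 4). The remaining array, of an embryoid body, entered no comparison and was used only in scaling the signals and in choosing each gene's probe. Arrays were chosen by the labelled line and MEG3 status alone. All 10974 genes whose probe was detected on at least 4 of the 11 stem cell arrays were tested, of 19951 genes with a probe, and those on the same side of MEG3-ON in both MEG3-OFF lines are described here.

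NTU1 and H9 are hESC lines, both grown on mouse embryonic fibroblast feeders in a serum-free stem cell medium, and gene expression was read on Illumina HumanHT-12 bead arrays. NTU1 sublines had been assigned to the 2 states from their MEG3 level by quantitative PCR, so the MEG3 signal itself checks the labels and is no finding. The labels describe neural differentiation as worse for MEG3-OFF NTU1 and better for MEG3-ON NTU1, and as not detected for H9, which served in the study as a control of pluripotency. There was no MEG3-ON array of H9, so for the H9 arrays the cell line and MEG3 status cannot be told apart. The study followed NTU1 through long culture, but how often the cells of an array had been passaged was not given in the sources used here, so time in culture and MEG3 status cannot be told apart either. All arrays lay on 1 chip with each group in adjoining positions, and position and group likewise cannot be told apart. Nothing in the labels says that replicates came from separate cultures, so the p-values measure only the spread between these samples.

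MEG3 is a long noncoding RNA of the DLK1-DIO3 locus, an imprinted stretch of chromosome 14 in which 1 parental copy is read for each gene. From the maternal copy come MEG3, MEG8, MEG9, a cluster of small nucleolar RNA (snoRNA) genes and many microRNAs, and from the paternal copy come DLK1, RTL1 and DIO3. Methylation of control regions near MEG3 keeps the paternal noncoding genes silent, and in cultured pluripotent cells the maternal copy can become methylated too, which silences the whole noncoding cluster. hESCs also vary in how strongly they express genes of the early neural plate and of the naive or primed pluripotent state, and both kinds of genes are described below.

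Between 16864 and 18390 probes were detected on each of the 11 arrays (detection p under 0.01), and each array correlated best with another of its own group. Correlations over all genes were 0.962 to 0.983 between MEG3-OFF NTU1 and MEG3-ON arrays and 0.935 to 0.969 between H9 and MEG3-ON arrays. The stem cell markers POU5F1, SOX2, LIN28A, DNMT3B and CRIPTO were detected on all 11 arrays and passed no test between pooled MEG3-OFF and MEG3-ON cells (adjusted p = 0.208 to 0.848). POU5F1, for example, was 12.57 ± 0.17 in MEG3-OFF and 12.32 ± 0.07 in MEG3-ON cells (log2 normalized signal, mean ± SD, n = 7 and 4). The marker NANOG went opposite ways in the 2 lines and is described with the genes on which the lines parted. Of 12 mesoderm, amnion and trophoblast genes, 5 endoderm genes and 7 neural crest genes tested, 0 passed in either direction by limma. An unadjusted p under 0.05 was seen in 3, 1 and 4 of them, and in 1882 of all 10974 genes tested.

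Pooled MEG3-OFF cells differed from MEG3-ON cells in 246 genes (limma, adjusted p under 0.05), or 2.24% of those tested. Lower in MEG3-OFF were 145 genes (1.32%) and higher were 101 (0.920%), with a median fold of 1.93 among the lower and 1.80 among the higher genes, and 225 of the 246 passed 1.5-fold. All 246 lay on the same side of MEG3-ON in both lines, against 6276 of the 10974 genes tested. The pooled test counts a gap between the lines as spread, and both lines share the MEG3-ON arrays, so this share is no result. The smallest fold called was 1.38. In 209 of the 246 the 7 MEG3-OFF arrays did not overlap the 4 MEG3-ON arrays, a separation that 504 of all genes showed (4.59%). The median difference over all genes was 0.0017 on the log2 scale, so the scaling held the bulk of genes level. The count of 246 moved with single arrays: it was 84 without MEG3-ON replicate 4, 112 without MEG3-ON replicate 2, 131 without MEG3-ON replicate 3, 147 without MEG3-ON replicate 1 and 144 without MEG3-OFF NTU1 replicate 9, and 74 of the 246 genes were called in all 11 fits that left out 1 array. Without overlap were 84, 111, 130 and 139 calls when MEG3-ON replicate 4, 2 or 3 or MEG3-OFF NTU1 replicate 9 was left out, and 328 when MEG3-OFF NTU1 replicate 5 was.

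Each line was also set against MEG3-ON on its own, in 1 fit with 3 groups. MEG3-OFF NTU1 differed from MEG3-ON in 367 genes (3.34%), H9 in 3319 (30.2%), and H9 differed from MEG3-OFF NTU1 in 3620 (33.0%). A gene was called in both lines in the same direction in 227 cases (2.07%), 139 of them lower and 88 higher in MEG3-OFF, and in opposite directions in 5. Both contrasts use the same 4 MEG3-ON arrays, so these counts are no independent repeats of each other. The 227 became 104 without MEG3-ON replicate 4 and 141 without replicate 2, 140 and 136 without MEG3-OFF NTU1 replicates 6 and 9, 146 without H9 replicate 2, and 393 without MEG3-OFF NTU1 replicate 5. Of the 246 pooled calls, 211 were called in both lines, 20 in the NTU1 contrast only and 15 in the H9 contrast only. The lower genes lay a median of 0.89 below MEG3-ON in MEG3-OFF NTU1 and 1.07 below it in H9 on the log2 scale, and the higher genes 0.77 and 0.84 above it. H9 lay further from MEG3-ON than MEG3-OFF NTU1 did in 115 of the 145 lower genes and in 48 of the 101 higher ones. In 42 of the 246 genes the 2 MEG3-OFF lines differed from each other by their own test.

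**Figure D1:**
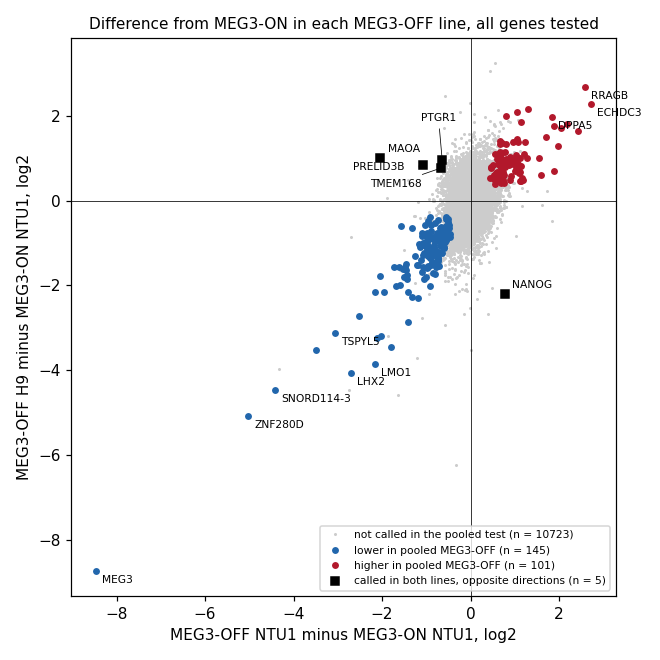
Each point is a gene, placed by its log2 difference from MEG3-ON in MEG3-OFF NTU1 (horizontal axis) and in H9 (vertical axis); both axes share the 4 MEG3-ON arrays. The 145 lower and 101 higher pooled calls fill the lower left and upper right corners, MEG3 stands far out at -8.46 and -8.71, and the 5 genes called in opposite directions are black squares.

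MEG3 and most measured genes of its DLK1-DIO3 locus were lower in MEG3-OFF cells of both lines. Of 8 members tested, of 54 listed, 6 were lower in pooled MEG3-OFF and 0 higher, and the median difference of the list was -2.53 (-2.22 with genes below background held at their bound) beside 0.0017 over all genes. Of the 8, 4 were detected on no MEG3-OFF array and could be tested only because all 4 MEG3-ON arrays detected them. With 36 listed members having a probe, the count and median describe the members detected and are no test of the locus. MEG3 was 5.16, 5.37, 5.08, 6.30 and 4.97 on the MEG3-OFF NTU1 arrays and 5.10 and 5.15 on the H9 arrays, against 13.15, 14.05, 14.12 and 14.04 on the MEG3-ON arrays (log2 normalized signal, as for all levels below). Its probe was detected on 1 of the 7 MEG3-OFF arrays, NTU1 replicate 8, and on all 4 MEG3-ON arrays, and the labels rest on this gene.

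Downstream of MEG3, 3 of the 4 snoRNA probes tested were lower in MEG3-OFF and showed no overlap with MEG3-ON. SNORD114-3 was 4.72, 4.96, 4.68, 4.69 and 4.74 in MEG3-OFF NTU1 and 4.78 and 4.64 in H9, against 8.40, 9.70, 9.36 and 9.22 in MEG3-ON cells. Below background on all 7 MEG3-OFF arrays, it was at least 10.2-fold lower there (difference -4.43 ± 0.19, SE, as for all differences below; adjusted p = 3e-09). A bound of this kind sets the MEG3-ON mean against the lowest signal still detected on the MEG3-OFF arrays, or the gene's own signal where that was higher, and is given below for each gene that none of the 7 MEG3-OFF arrays, or none of the 4 MEG3-ON arrays, detected. Where 1 MEG3-OFF line alone lacked detection, the fitted differences take in signals near background. SNORD114-1 was likewise undetected in MEG3-OFF and at least 6.32-fold lower (adjusted p = 1.83e-08), with 4.86 and 5.09 in H9 against 8.17, 9.14, 8.32 and 8.31 in MEG3-ON. SNORD113-3 was at least 1.58-fold lower (adjusted p = 4.32e-05). Whether these probes read the snoRNAs or their longer host transcript was not tested.

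The longer noncoding RNAs followed. MEG9 was 5.23, 5.05, 4.86, 5.23 and 5.08 in MEG3-OFF NTU1 and 4.86 and 4.90 in H9, against 6.94, 8.14, 7.65 and 7.71 in MEG3-ON cells, or at least 3.45-fold lower in MEG3-OFF (adjusted p = 1.8e-06). MEG8 stayed detectable, on 6 of 7 MEG3-OFF arrays, and was lower, with a difference of -1.97 ± 0.22 (adjusted p = 0.000248). Its H9 values of 6.39 and 5.92 reached above the MEG3-OFF NTU1 arrays, which ran from 5.61 to 6.04, but stayed below the 4 MEG3-ON arrays at 7.04 to 8.45. The remaining members tested did not pass: SNORD114-2 differed by -0.45 ± 0.17 (adjusted p = 0.193) and was detected on both H9 arrays.

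DLK1, the paternally expressed growth regulator of the locus, differed by -2.47 ± 0.72 in the pooled test without passing it (adjusted p = 0.0965). Its levels were 8.16, 9.15, 10.13, 10.94 and 8.18 in MEG3-OFF NTU1 and 6.32 and 6.41 in H9, against 11.03, 10.68, 10.87 and 11.19 in MEG3-ON cells. MEG3-OFF NTU1 replicate 8 reached the MEG3-ON range, while both H9 arrays lay below every NTU1 array. The difference of H9 from MEG3-ON was -4.58 (adjusted p = 0.000221), that of MEG3-OFF NTU1 -1.63 (adjusted p = 0.0642), and H9 was lower than MEG3-OFF NTU1 by its own test (-2.95 ± 0.57, adjusted p = 0.00316).

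Among the lower genes, 16 were undetected on all 7 MEG3-OFF arrays. Such a gene could be tested only if all 4 MEG3-ON arrays detected it. Outside the locus, 4 of these 16 belong to a list of 26 genes known to be silenced recurrently in cultured pluripotent cells. The list was chosen with earlier results of these data known, so membership is no independent support. Of the list 14 genes could be tested, 5 were lower in MEG3-OFF, MEG3 among them, and 0 were higher (list median -0.32). Over all genes 1.32% were lower and 0.920% higher. ZNF280D, a zinc finger gene on chromosome 15, was 4.71, 4.57, 5.27, 4.85 and 4.71 in MEG3-OFF NTU1 and 4.87 and 4.70 in H9, against 10.04, 9.70, 9.79 and 9.88 in MEG3-ON cells. It was at least 16.3-fold lower in MEG3-OFF (difference -5.04 ± 0.14, adjusted p = 2.5e-11), all 3 of its detected probes were lower, and the test between the 2 MEG3-OFF lines did not pass (difference -0.04 ± 0.18, adjusted p = 0.892). TSPYL5, of the nucleosome assembly protein family, was 4.66, 4.55, 4.60, 4.50 and 4.57 in MEG3-OFF NTU1 and 4.51 and 4.56 in H9, against 7.79, 7.39, 7.66 and 7.76 in MEG3-ON, at least 3.54-fold lower (adjusted p = 3.36e-10). ZNF560, another zinc finger gene, was at least 1.87-fold lower (adjusted p = 1.2e-05), with 4.57 and 4.56 in H9 against 6.94, 7.18, 6.81 and 5.97 in MEG3-ON. CAT, which encodes catalase, was 5.14, 5.02, 5.04, 5.04 and 5.47 in MEG3-OFF NTU1 and 5.36 and 5.28 in H9, against 7.10, 6.43, 7.14 and 6.86 in MEG3-ON, at least 2.08-fold lower (adjusted p = 2.26e-05). In all of these both H9 arrays sat within or next to the narrow MEG3-OFF NTU1 range. All 7 MEG3-OFF arrays were below detection there, so neither this closeness nor the ZNF280D test between the lines compares measured levels.

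IAH1, an esterase gene of the same list, was uneven within H9. Its levels were 5.52, 5.69, 5.77, 5.85 and 5.67 in MEG3-OFF NTU1 and 9.40 and 5.70 in H9, against 8.79, 8.29, 8.27 and 8.27 in MEG3-ON cells. H9 replicate 1 was above every MEG3-ON array and H9 replicate 2 was among the MEG3-OFF NTU1 arrays, so the 2 arrays of 1 line disagreed by more than any MEG3-OFF NTU1 pair. The pooled difference was -2.18 ± 0.58 (adjusted p = 0.0725), while MEG3-OFF NTU1, in which no array detected the gene, was at least 5.92-fold below MEG3-ON (adjusted p = 0.00827). NNAT, an imprinted gene of chromosome 20 that encodes neuronatin, was as uneven: 5.36, 5.23, 11.80, 11.25 and 5.54 in MEG3-OFF NTU1 and 6.33 and 10.10 in H9, against 12.13, 11.92, 12.08 and 12.57 in MEG3-ON (difference -4.23 ± 1.22, adjusted p = 0.092). All 7 MEG3-OFF arrays lay below all 4 MEG3-ON arrays, MEG3-OFF NTU1 replicates 7 and 8 nearest to them, H9 replicate 2 next, and the other 4 furthest off. Of 25 other imprinted genes tested, 1 was called, beside 2.24% of all genes. It was NLRP2, which was higher in MEG3-OFF (0.94 ± 0.19, adjusted p = 0.0184). That call was lost without MEG3-ON replicate 1, 2 or 3 (adjusted p = 0.0676, 0.0529 and 0.0727).

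The promoters of 2 genes lost and 2 genes gained in both MEG3-OFF lines are shown with their CG dinucleotides, the sites of DNA methylation. The 250 bases before the RefSeq transcription start (GRCh38.p14) are printed 5′ to 3′ on the gene's strand, with each CG dinucleotide in capitals. MEG3 is at chr14:100825858-100826107 (plus strand, first of 3 starts in the table), ZNF280D at chr15:56733510-56733759 (minus strand), RRAGB at chrX:55717499-55717748 (plus strand) and DPPA5 at chr6:73354277-73354526 (minus strand).
MEG3: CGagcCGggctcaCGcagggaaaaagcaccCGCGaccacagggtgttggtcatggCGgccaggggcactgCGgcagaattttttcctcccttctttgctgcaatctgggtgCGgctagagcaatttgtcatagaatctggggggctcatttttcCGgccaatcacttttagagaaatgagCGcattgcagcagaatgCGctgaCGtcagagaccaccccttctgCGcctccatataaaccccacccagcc
ZNF280D: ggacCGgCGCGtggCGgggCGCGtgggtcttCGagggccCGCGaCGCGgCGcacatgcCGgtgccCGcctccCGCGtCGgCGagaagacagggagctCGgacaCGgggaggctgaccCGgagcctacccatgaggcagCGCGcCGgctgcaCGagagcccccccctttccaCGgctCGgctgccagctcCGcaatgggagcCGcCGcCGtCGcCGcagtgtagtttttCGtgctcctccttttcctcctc
RRAGB: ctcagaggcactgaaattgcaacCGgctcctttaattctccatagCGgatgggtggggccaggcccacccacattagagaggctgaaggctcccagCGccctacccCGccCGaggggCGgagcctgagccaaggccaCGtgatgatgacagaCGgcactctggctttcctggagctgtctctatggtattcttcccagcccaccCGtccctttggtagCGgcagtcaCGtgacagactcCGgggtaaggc
DPPA5: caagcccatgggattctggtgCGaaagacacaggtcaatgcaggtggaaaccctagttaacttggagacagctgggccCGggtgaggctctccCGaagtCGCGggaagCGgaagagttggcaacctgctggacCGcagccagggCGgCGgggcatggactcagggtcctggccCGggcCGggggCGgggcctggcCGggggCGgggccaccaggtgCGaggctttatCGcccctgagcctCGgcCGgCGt
The stretches hold 13 CG in MEG3, 34 in ZNF280D, 12 in RRAGB and 19 in DPPA5, where the 35116 promoters of the table have a median of 11 and quartiles of 3 and 23. ZNF280D had more CG than 93.2% of promoters, and RRAGB lay near the middle at 51.5%. Over the 15 most reduced and 15 most raised genes, 9 and 8 were in the table, with medians of 13 and 18 CG. The MEG3 stretch holds the cyclic AMP response motif TGACGTCA (which reads the same on both strands) once, a motif that 1.65% of all promoters hold. No methylation was measured on these arrays.

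Genes that gained expression in MEG3-OFF cells included 13 that no MEG3-ON array detected. Such a gene could be tested only if at least 4 MEG3-OFF arrays detected it. RRAGB, a Rag GTPase of the amino acid sensing branch of mTORC1, was 6.82, 7.20, 7.02, 7.16 and 7.35 in MEG3-OFF NTU1 and 7.01 and 7.40 in H9, against 4.60, 4.44, 4.59 and 4.50 in MEG3-ON cells. It was at least 2.46-fold higher in MEG3-OFF (difference 2.60 ± 0.13, adjusted p = 1.54e-08), with nothing between the groups. USP51, a deubiquitinase gene next to it, was 6.79, 7.07, 6.55, 6.58 and 6.94 in MEG3-OFF NTU1 and 6.36 and 6.99 in H9, against 4.93, 4.71, 5.02 and 4.97 in MEG3-ON, at least 1.89-fold higher (adjusted p = 6.35e-06). MAGEH1, their neighbour on chromosome X and a melanoma antigen family gene, was detected in every group and higher by 1.39 ± 0.16 (adjusted p = 0.000314). Its rise was smaller in H9 (7.82 and 7.73) than in MEG3-OFF NTU1 (8.30, 8.42, 8.32, 8.19 and 8.43) by the test between the lines (adjusted p = 0.0128).

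On chromosome 8 a similar gain was seen in 2 neighbouring genes and in THEM6. COL22A1, a collagen gene, was 6.77, 6.32, 6.41, 5.82 and 6.86 in MEG3-OFF NTU1 and 6.21 and 6.27 in H9, against 4.91, 4.86, 4.65 and 4.53 in MEG3-ON, where no array detected it (at least 1.46-fold higher in MEG3-OFF, adjusted p = 0.000183). KHDRBS3, an RNA-binding splicing regulator, was 9.81, 9.79, 9.91, 9.95 and 9.64 in MEG3-OFF NTU1 and 9.39 and 9.48 in H9, against 8.33, 8.35, 7.07 and 6.82 in MEG3-ON (difference 2.07 ± 0.27, adjusted p = 0.000777). MEG3-ON replicates 1 and 2 stood above replicates 3 and 4, and all 4 lay under every MEG3-OFF array. THEM6, a thioesterase superfamily gene, was at least 2.73-fold higher in MEG3-OFF (adjusted p = 0.000758), but its H9 arrays lay apart at 7.58 and 5.86, the second nearer to MEG3-ON (4.98, 5.26, 5.06 and 5.06) than to MEG3-OFF NTU1 (7.41, 7.28, 7.74, 7.44 and 7.69). On chromosome 10, ECHDC3, a gene of the enoyl-CoA hydratase family, was 7.81, 8.45, 8.86, 9.02 and 8.49 in MEG3-OFF NTU1 and 7.88 and 8.26 in H9, against 6.73, 7.25, 4.61 and 4.62 in MEG3-ON (difference 2.59 ± 0.45, adjusted p = 0.0076). It was detected on MEG3-ON replicates 1 and 2 and not on 3 and 4, the same split of the MEG3-ON arrays as in KHDRBS3.

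**Figure D2:**
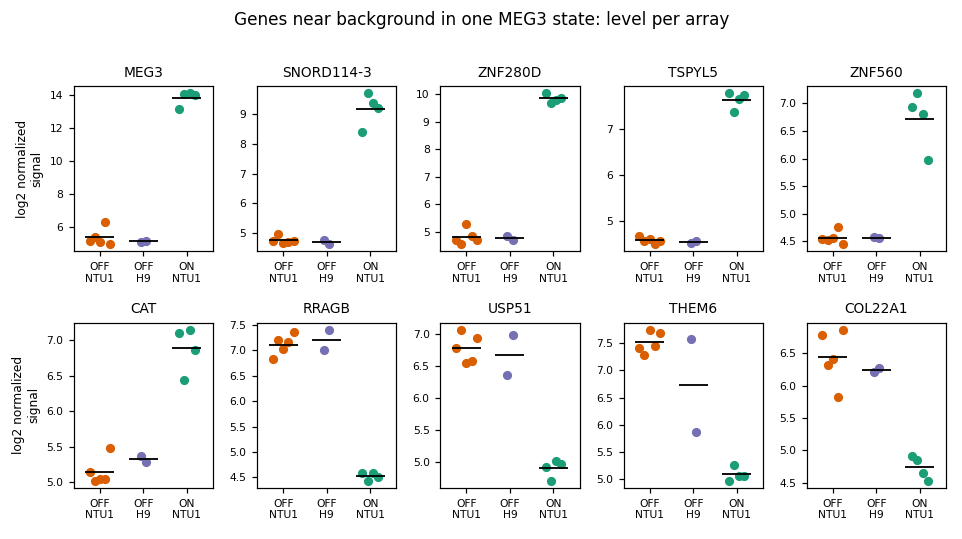
Log2 normalized signal (vertical axis, its own range in each panel) of 10 genes on the 5 MEG3-OFF NTU1, 2 H9 and 4 MEG3-ON arrays; points are arrays and bars are group means. In the 6 genes lost, MEG3 to CAT, all MEG3-OFF points lie below all MEG3-ON points, in the 4 genes gained they lie above, and only THEM6 shows H9 arrays far apart (7.58 and 5.86).

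Regulators of the early neural plate were lower in MEG3-OFF cells of both lines. Of 29 neuroectoderm and neural progenitor genes tested, of 40 listed, 10 were lower and 0 higher, beside 1.32% and 0.920% of all genes. Of the 22 that lay on the same side in both lines, 21 were lower, beside 3143 of 6276 such genes among all genes tested. The list median was -0.88 beside 0.0017 over all genes. The list was chosen with earlier results of these data known, so these counts are no independent support. The mean level of the 29 genes was 7.86 to 8.75 on MEG3-OFF NTU1 and 8.13 to 8.32 on H9 arrays, against 9.12 to 9.48 on MEG3-ON arrays, without overlap. The 10 called genes enter this mean, so the separation adds no further support. These are bulk RNA measurements, in which fewer neural-type cells and less RNA per cell cannot be told apart. Without MEG3-ON replicate 4 the count was 6 lower, and without each other array it was 9 to 14.

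LHX2, a LIM homeodomain factor of forebrain and eye, showed the largest fall of the list. It was 5.53, 5.41, 6.73, 7.19 and 4.70 in MEG3-OFF NTU1 and 4.57 and 4.54 in H9, against 8.96, 8.31, 7.91 and 9.27 in MEG3-ON (difference -3.09 ± 0.48, adjusted p = 0.00345) and reached detection on NTU1 replicates 7 and 8 alone among the MEG3-OFF arrays. RAX, which marks the eye field, followed the same arrays: 5.13, 6.40, 6.63, 7.27 and 4.84 in MEG3-OFF NTU1 and 4.98 and 4.79 in H9, against 8.19, 7.56, 8.03 and 8.50 in MEG3-ON (-2.35 ± 0.44, adjusted p = 0.0127, and 0.0695 without MEG3-ON replicate 4). SIX3, a forebrain and eye homeodomain factor, was undetected on all 7 MEG3-OFF arrays, with 4.72 and 4.85 in H9 against 6.49, 6.24, 6.42 and 7.22 in MEG3-ON, at least 1.70-fold lower (adjusted p = 0.000758). PAX6, among the earliest markers of human neuroectoderm, was also undetected in MEG3-OFF: 4.89, 4.82, 5.43, 5.37 and 4.69 in NTU1 and 5.43 and 4.75 in H9, against 7.03, 6.07, 6.28 and 7.25 in MEG3-ON, at least 1.78-fold lower (adjusted p = 0.00224).

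Among the Sox genes of the list, SOX11, of neural progenitors and young neurons, was 10.14, 9.76, 9.90, 10.37 and 9.46 in MEG3-OFF NTU1 and 9.59 and 9.62 in H9, against 11.005, 10.90, 11.11 and 11.50 in MEG3-ON (-1.29 ± 0.18, adjusted p = 0.00157). SOX3, a SoxB1 factor of the neural plate, was lower, with a difference of -0.82 ± 0.14 (adjusted p = 0.00702) and its groups did not overlap, the MEG3-OFF arrays ending at 9.55 and the MEG3-ON arrays starting at 9.93. SOX2, its relative that pluripotent cells also need, differed by -0.30 ± 0.14 without passing (adjusted p = 0.31), as did SOX21 (-1.45 ± 0.37, adjusted p = 0.0604). CDH2, the N-cadherin gene of neural epithelium, was 9.82, 10.14, 10.99, 10.61 and 10.36 in MEG3-OFF NTU1 and 10.44 and 10.41 in H9, against 11.44, 11.66, 11.21 and 11.77 in MEG3-ON (-1.13 ± 0.19, adjusted p = 0.00585).

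SFRP1, a secreted Wnt antagonist, was lower, with a difference of -1.05 ± 0.19 (adjusted p = 0.0102, and 0.0595 without MEG3-ON replicate 4). The LIM-only cofactor LMO1 was 6.08, 7.06, 6.71, 8.02 and 5.62 in MEG3-OFF NTU1 and 4.86 and 5.17 in H9, against 8.59, 8.64, 8.98 and 9.23 in MEG3-ON (-2.64 ± 0.47, adjusted p = 0.00948, and 0.0528 without MEG3-ON replicate 4). H9 detected LMO1 on neither array, while 4 of 5 MEG3-OFF NTU1 arrays did. LHX5, a forebrain LIM homeodomain factor, was the weakest call of the list (-1.04 ± 0.25, adjusted p = 0.0455), its groups overlapped, and it was lost without any of 6 of the 11 arrays (adjusted p = 0.0629 to 0.161). Members that did not pass included the midbrain and forebrain factor OTX2 (-0.52 ± 0.19, adjusted p = 0.188), the intermediate filament gene NES (-0.03 ± 0.14, adjusted p = 0.936) and the Notch effector HES5 (0.19 ± 0.38, adjusted p = 0.858). Of 22 genes of neuronal differentiation tested, 2 were lower and 0 higher, beside 1.32% and 0.920% of all genes, with a list median of -0.18.

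RTN1, an endoplasmic reticulum protein of neurons, was 5.93, 6.18, 6.52, 6.54 and 6.04 in MEG3-OFF NTU1 and 6.20 and 5.49 in H9, against 7.67, 7.39, 7.80 and 7.86 in MEG3-ON (-1.55 ± 0.19, adjusted p = 0.000425), although its other detected probe was higher in MEG3-OFF. MAP2, which encodes a dendritic microtubule protein, was at least 1.27-fold lower (-1.05 ± 0.17, adjusted p = 0.00519) on a probe that no MEG3-OFF array detected, while 1 of its 3 probes was higher in MEG3-OFF. With the embryoid body left out of scaling and probe choice another MAP2 probe was chosen, and the difference was 0.42. RTN1 kept its direction and its call in all 29 alternative settings, where its difference ran from -1.84 to -0.76.

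**Figure D3:**
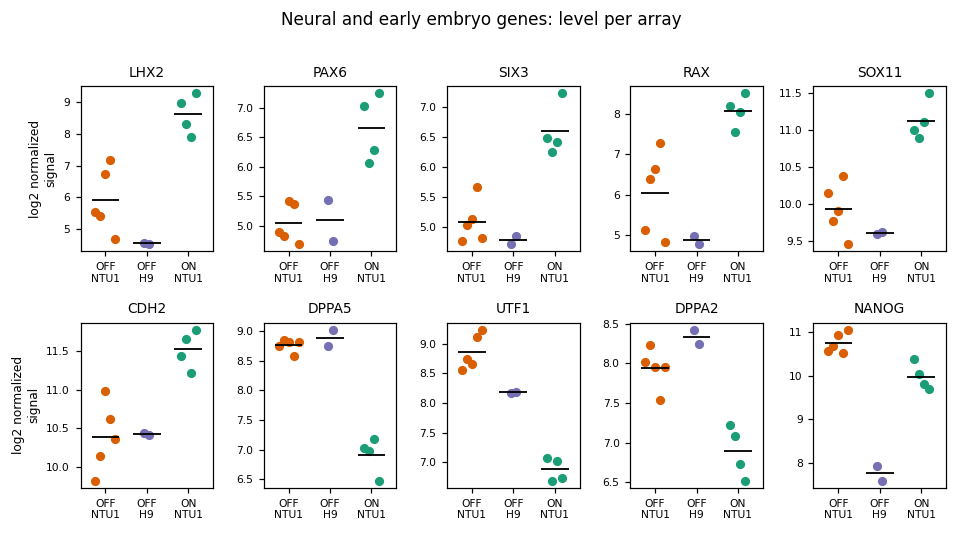
Log2 normalized signal (vertical axis, its own range in each panel) of 6 neural genes and 4 genes of the early embryo and pluripotent cells on the 5 MEG3-OFF NTU1, 2 H9 and 4 MEG3-ON arrays; points are arrays and bars are group means. LHX2 to CDH2 are lower and DPPA5, UTF1 and DPPA2 higher on all 7 MEG3-OFF arrays, and NANOG is high in MEG3-OFF NTU1 and low in H9.

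Other genes among the 15 largest falls were VWF, CDH6, FLRT3 and EPHA4. VWF, the clotting factor of endothelium, was 5.60, 5.71, 5.66, 6.998 and 4.92 in MEG3-OFF NTU1 and 4.77 and 4.58 in H9, against 7.23, 7.70, 8.14 and 8.55 in MEG3-ON (-2.44 ± 0.38, adjusted p = 0.00377). Detected on NTU1 replicate 8 alone among the MEG3-OFF arrays, it had the same high array as LHX2 and RAX. CDH6, the K-cadherin gene, was 7.48, 7.26, 8.10, 7.83 and 6.06 in MEG3-OFF NTU1 and 5.88 and 5.48 in H9, against 8.78, 9.10, 8.96 and 9.71 in MEG3-ON (-2.27 ± 0.45, adjusted p = 0.0186), and lost its call without MEG3-ON replicate 2 or 4 (adjusted p = 0.0613 and 0.0923). FLRT3, a leucine-rich repeat protein of cell adhesion and FGF signalling, was 5.64, 5.83, 5.90, 5.97 and 5.14 in MEG3-OFF NTU1 and 5.43 and 5.56 in H9, against 7.69, 7.01, 7.91 and 7.99 in MEG3-ON (-2.01 ± 0.20, adjusted p = 6.54e-05). EPHA4, an ephrin receptor of axon guidance and hindbrain patterning, was 7.28, 7.37, 7.63, 7.69 and 6.84 in MEG3-OFF NTU1 and 7.37 and 6.71 in H9, against 8.79, 8.81, 9.10 and 9.49 in MEG3-ON (-1.78 ± 0.20, adjusted p = 0.000256). In EPHA4 and FLRT3 the 2 MEG3-OFF lines overlapped, and the test between lines did not pass (adjusted p = 0.332 and 0.578).

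Some genes of the pluripotent state were higher in MEG3-OFF. Of 36 tested, 4 were higher and 0 lower, beside 0.920% and 1.32% of all genes, with a list median of 0.11. Without each of the 11 arrays 4 were higher. The test between the 2 lines passed in 15 of the 36, beside 33.0% of all genes. DPPA5, an RNA-binding protein of early embryo and germ cells, was 8.75, 8.84, 8.82, 8.57 and 8.82 in MEG3-OFF NTU1 and 8.75 and 9.02 in H9, against 7.02, 6.97, 7.18 and 6.48 in MEG3-ON (1.88 ± 0.14, adjusted p = 2.65e-06), and the test between the MEG3-OFF lines did not pass (0.12 ± 0.18, adjusted p = 0.618). Its neighbour KHDC3L, of the same gene family and known from the oocyte, was higher too (1.03 ± 0.18, adjusted p = 0.00673). UTF1, a chromatin factor of undifferentiated cells, was 8.55, 8.74, 8.66, 9.12 and 9.23 in MEG3-OFF NTU1 and 8.17 and 8.18 in H9, against 7.07, 6.69, 7.02 and 6.73 in MEG3-ON (1.78 ± 0.20, adjusted p = 0.000248). Here H9 rose less than MEG3-OFF NTU1 (-0.68 ± 0.19 between the lines, adjusted p = 0.0156), as it did in the neighbouring homeobox gene VENTX (9.19 and 9.08 in H9 and 9.87, 9.83, 9.81, 10.005 and 9.63 in MEG3-OFF NTU1, against 8.67, 8.81, 8.63 and 8.63 in MEG3-ON; adjusted p between the lines = 0.00293).

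DPPA2, a developmental pluripotency gene, was 8.02, 8.23, 7.96, 7.54 and 7.96 in MEG3-OFF NTU1 and 8.42 and 8.24 in H9, against 7.22, 7.08, 6.73 and 6.52 in MEG3-ON (1.16 ± 0.18, adjusted p = 0.00278), while its partner DPPA4 was level (0.09 ± 0.11, adjusted p = 0.735). ETV4, an ETS factor downstream of FGF signalling, was higher by 0.99 ± 0.16 (adjusted p = 0.00393), and its close relative ETV5, outside the list, was 8.48, 7.80, 8.29, 7.67 and 8.33 in MEG3-OFF NTU1 and 7.68 and 8.02 in H9, against 7.08, 7.04, 6.45 and 6.80 in MEG3-ON (1.19 ± 0.19, adjusted p = 0.00345). In both ETS genes all MEG3-OFF arrays exceeded all MEG3-ON arrays. ZFP42, LIN28B and KLF4 had differences of 0.07, 0.12 and -0.20 and did not pass. KHDC3L and VENTX were named after their values were seen, because they adjoin called genes.

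Also among the largest rises were 3 genes with no place in a list. WDR72, a WD repeat gene, was 6.79, 7.63, 7.56, 7.14 and 7.54 in MEG3-OFF NTU1 and 8.23 and 8.19 in H9, against 6.14, 6.16, 6.18 and 5.70 in MEG3-ON (1.54 ± 0.24, adjusted p = 0.00367), and H9 exceeded MEG3-OFF NTU1 (adjusted p = 0.00931). PRRG1, a membrane protein with a Gla domain, was higher by 1.27 ± 0.16 (adjusted p = 0.000701), and CEBPD, a bZIP transcription factor of inflammation and differentiation, by 1.17 ± 0.18 (adjusted p = 0.00295). For PRRG1 the lowest MEG3-OFF array was 7.79 and the highest MEG3-ON array 7.15, and for CEBPD they were 7.62 and 7.05.

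Of 37 NODAL, WNT, FGF and BMP genes tested, 5 were lower in MEG3-OFF, FRZB, SFRP1, DKK1, LEF1 and FZD2, and 1 was higher, INHBE, with a list median of -0.12. Over all genes 1.32% were lower and 0.920% higher. The 5 lower genes are known from the Wnt pathway. FRZB, a secreted Wnt antagonist, was 9.37, 9.71, 9.95, 10.15 and 9.12 in MEG3-OFF NTU1 and 8.87 and 8.57 in H9, against 10.91, 10.76, 11.32 and 10.94 in MEG3-ON (-1.59 ± 0.26, adjusted p = 0.00519). SFRP1, of the same family, fell as given above. DKK1, which blocks the Wnt co-receptor, was undetected on all MEG3-OFF arrays and at least 1.16-fold lower (adjusted p = 0.00071). LEF1, a transcription factor at the end of the pathway, was lower, with a difference of -1.03 ± 0.17 (adjusted p = 0.00519), and the receptor FZD2 too, at -1.50 ± 0.31 (adjusted p = 0.0208). The FZD2 call was lost without MEG3-ON replicate 2, 3 or 4 (adjusted p = 0.0649, 0.0616 and 0.0995), and that of SFRP1 without MEG3-ON replicate 4 (0.0595). The Wnt target AXIN2 (0.33 ± 0.20, adjusted p = 0.44) and the receptor FZD7 (-0.31 ± 0.19, adjusted p = 0.434) did not pass. WIF1, another secreted Wnt antagonist, did not pass either (0.48 ± 0.13, adjusted p = 0.0799), and there the MEG3-OFF arrays all lay above the MEG3-ON arrays. INHBE, an activin subunit, was higher by 1.03 ± 0.24 (adjusted p = 0.0376) and lost its call without any of 7 of the 11 arrays (adjusted p = 0.0528 to 0.153). Without MEG3-ON replicate 4 the list held 3 lower genes and 0 higher.

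Of 33 genes tested of the response to amino acid shortage, 4 were higher and 0 lower in pooled MEG3-OFF, beside 0.920% and 1.32% of all genes. Of the 23 on the same side in both lines, 21 were higher, beside 3133 of 6276 such genes among all genes tested. The list median was 0.37 beside 0.0017 over all genes. The lines were uneven: the median was 0.16 in H9 and 0.40 in MEG3-OFF NTU1. The test between the 2 lines passed in 16 of the 33 genes, beside 33.0% of all genes tested. In H9 the cystathionine synthase gene CBS (-0.59, adjusted p = 0.0055) and DDIT4, an inhibitor of mTORC1 (-1.45, adjusted p = 0.0165), were lower than in MEG3-ON, while in MEG3-OFF NTU1 they did not pass (0.23 and -0.28, adjusted p = 0.215 and 0.625). CHAC1, which degrades glutathione, was 7.01, 7.05, 7.48, 6.99 and 6.91 in MEG3-OFF NTU1 and 6.30 and 5.90 in H9, against 5.55, 5.79, 5.38 and 5.29 in MEG3-ON, where no array detected it, so it was at least 1.96-fold higher in MEG3-OFF (adjusted p = 0.0125, and 0.0678 without MEG3-ON replicate 4). H9 lay between the 2 NTU1 groups and differed from MEG3-OFF NTU1 (adjusted p = 0.00276). PSAT1, of serine synthesis, was higher by 0.70 ± 0.11 (adjusted p = 0.00411). ASNS, asparagine synthetase, was higher by 0.59 ± 0.12 (adjusted p = 0.0206), and MTHFD2, of mitochondrial folate metabolism, by 0.74 ± 0.16 (adjusted p = 0.0243). ASNS lost its call without any 1 of the 4 MEG3-ON arrays (adjusted p = 0.0528 to 0.0944) and MTHFD2 without MEG3-ON replicate 2, 3 or 4 or MEG3-OFF NTU1 replicate 9 (adjusted p = 0.055 to 0.105). The factor ATF4, which drives the response, differed by 0.37 ± 0.11 (adjusted p = 0.111) and 1 of its 3 probes was lower. Without MEG3-ON replicate 4 the list held 1 call, and 2 without MEG3-ON replicate 2 or 3.

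Metallothioneins and antioxidant enzymes had 1 gene higher and 1 lower of 32 tested, beside 0.920% and 1.32% of all genes, and a median of 0.32. HMOX1, heme oxygenase, was 8.37, 7.90, 7.88, 7.67 and 7.91 in MEG3-OFF NTU1 and 7.83 and 8.09 in H9, against 7.49, 6.97, 7.06 and 7.15 in MEG3-ON (0.78 ± 0.15, adjusted p = 0.0127), and lost its call without MEG3-ON replicate 2, 3 or 4 (adjusted p = 0.0619, 0.0506 and 0.0587). The lower gene was CAT, as above. The metallothionein MT1X had 0.0514 as its adjusted p (1.02 ± 0.25). Of the 27 genes on the same side in both lines 24 were higher, beside 3133 of 6276 such genes among all genes tested. The list held 4 higher genes, in place of 1, on raw quantile-normalized signals, on the deposited matrix and with an offset of 50, and 3 with cyclic loess.

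The 3 interferon-induced transmembrane genes accounted for the calls of the MHC class I and antigen processing list, in which 3 of 18 were higher and 0 lower (median 0.13). Over all genes 0.920% were higher and 1.32% lower. IFITM1, which restricts virus entry, was 12.94, 13.05, 13.13, 13.41 and 13.20 in MEG3-OFF NTU1 and 13.38 and 13.11 in H9, against 12.21, 12.29, 12.54 and 12.12 in MEG3-ON (0.88 ± 0.13, adjusted p = 0.0022). IFITM2 (0.56 ± 0.14, adjusted p = 0.0471) and IFITM3 (0.55 ± 0.12, adjusted p = 0.0336) lost their calls without any of 9 and 7 of the 11 arrays (adjusted p = 0.0535 to 0.151 and 0.0528 to 0.126). The 3 genes are close copies of each other, and their probes may share signal.

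Of 18 genes in 2 regions, on the long arms of chromosomes 20 and 15, the first of which hESCs often gain in culture, 3 were higher and 0 lower (median 0.035), and all 3 lie side by side on chromosome 15. Over all genes 0.920% were higher and 1.32% lower. NIPA2, a magnesium transporter gene, was 11.71, 11.58, 11.53, 11.36 and 11.71 in MEG3-OFF NTU1 and 11.56 and 11.55 in H9, against 10.75, 10.80, 10.61 and 10.55 in MEG3-ON (0.89 ± 0.11, adjusted p = 0.000601). CYFIP1, of the actin-regulating WAVE complex, was higher by 0.82 ± 0.13 (adjusted p = 0.00406) and NIPA1 by 0.77 ± 0.14 (adjusted p = 0.0098, and 0.0587 without MEG3-ON replicate 4). TUBGCP5, the other gene of that group, differed by 0.40 ± 0.12 and did not pass (adjusted p = 0.101). BCL2L1, the survival gene of the chromosome 20 region, was level (-0.02 ± 0.13, adjusted p = 0.967). Copy number was not measured.

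The remaining lists had few or no calls, beside 2.24% called of all genes. PMAIP1, which promotes apoptosis, was the 1 gene called of 18 p53 targets and apoptosis genes (0.75 ± 0.17, adjusted p = 0.0381), and it lost its call without any of 7 arrays (adjusted p = 0.0549 to 0.153). Of 22 fibroblast and stromal genes, the collagen gene COL6A1 was higher (0.66 ± 0.12, adjusted p = 0.009, and 0.0555 without MEG3-ON replicate 4) and the smooth muscle actin gene ACTA2 lower (-0.92 ± 0.19, adjusted p = 0.0242, lost without any of 5 arrays at 0.051 to 0.107). By limma, 0 were called of 27 chromatin and DNA methylation enzymes, 34 cell cycle genes, 25 genes of glycolysis and hypoxia, 21 of cholesterol and fatty acid synthesis and 13 housekeeping controls, with 2, 5, 3, 4 and 1 at an unadjusted p under 0.05. Of all 10974 genes tested, 1882 were at that level. The medians of these lists ran from -0.15 to 0.057.

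**Figure D4:**
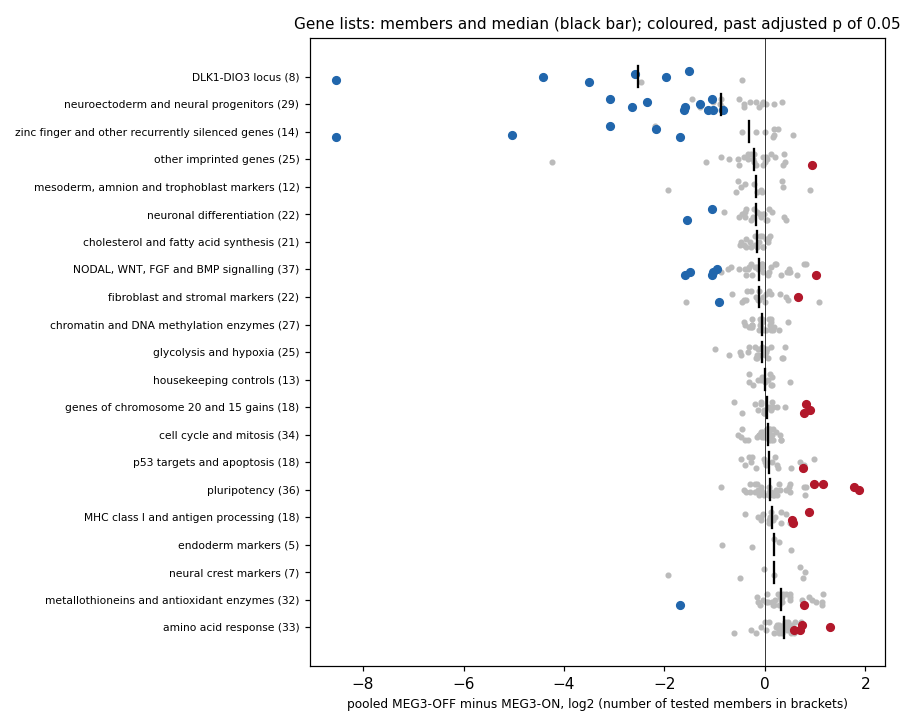
Log2 difference of pooled MEG3-OFF minus MEG3-ON for every tested member of 21 gene lists (horizontal axis), ordered by list median (black bars); blue and red points passed an adjusted p of 0.05, grey points did not. The DLK1-DIO3 locus and neuroectoderm lists lie furthest left, with medians of -2.53 and -0.88, and amino acid response furthest right at 0.37.

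Called genes that adjoin each other among the tested genes formed 14 runs. Besides those already named these included SHROOM2, WWC3 and MID1 on chromosome X, all lower in MEG3-OFF (-0.99, -0.79 and -0.83), TRAPPC2 and OFD1 on the same chromosome, both lower (-1.07 and -0.65), and NLRP7 beside NLRP2 on chromosome 19, both higher (1.13 and 0.94). PAMR1 and FJX1 (-1.53 and -0.97) and ME3 and PRSS23 (-1.01 and -1.12) were lower pairs on chromosome 11, and CADM4 and PLAUR (-0.50 and -0.65) a lower pair on chromosome 19. On chromosome 14 the microRNA gene MIR300, outside the locus list, adjoined SNORD114-3 and was called lower. Its call was kept in 7 of the 11 fits that left out 1 array. These genes were named after their values were seen, for their position only.

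In both lines but in opposite directions 5 genes were called, and none of them passed the pooled test. NANOG, a core pluripotency factor, was 10.57, 10.68, 10.94, 10.51 and 11.04 in MEG3-OFF NTU1 and 7.94 and 7.60 in H9, against 10.38, 10.03, 9.81 and 9.69 in MEG3-ON. It was higher than MEG3-ON in MEG3-OFF NTU1 (0.77, adjusted p = 0.0183) and lower in H9 (-2.21, adjusted p = 2.13e-05), and the pooled difference was -0.08 ± 0.61 (adjusted p = 0.963). MAOA, which encodes monoamine oxidase A, ran the other way: no MEG3-OFF NTU1 array detected it (4.73, 5.08, 4.97, 4.63 and 5.02), while H9 had 7.90 and 7.94, against 7.18, 6.45, 7.05 and 7.004 in MEG3-ON (H9 at least 4.22-fold above MEG3-OFF NTU1, adjusted p = 8.44e-07). H9 lay above and MEG3-OFF NTU1 below MEG3-ON in PRELID3B (1.90 ± 0.21 between the lines, adjusted p = 0.000127), PTGR1, a prostaglandin reductase gene (1.59 ± 0.18, adjusted p = 0.000177) and TMEM168 (undetected in MEG3-OFF NTU1, at least 1.63-fold, adjusted p = 0.000112) as well. In these 4 genes no H9 array overlapped an NTU1 array.

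Among the pooled calls in which the test between the lines passed, H9 lay furthest below MEG3-OFF NTU1 in LMO1, CDH6, IGFBP5, DPEP3 and SKIDA1. In 4 of these both lines were lower than MEG3-ON by their own tests, and DPEP3 was the exception. CDH6, given above, was lower in H9 than in MEG3-OFF NTU1 by its own test (-1.67 ± 0.41, adjusted p = 0.00899), and LMO1, which no H9 array detected, was at least 1.88-fold lower (adjusted p = 0.0131). LHX2 and RAX had gaps of -1.36 and -1.17, and the test between the lines did not pass (adjusted p = 0.063 and 0.0873). IGFBP5, an insulin-like growth factor binding protein, was 8.73, 7.56, 6.95, 7.83 and 6.83 in MEG3-OFF NTU1 and 6.35 and 5.91 in H9, against 8.61, 9.16, 8.66 and 9.52 in MEG3-ON, so that 1 MEG3-OFF NTU1 array reached the MEG3-ON range (-1.82 ± 0.42, adjusted p = 0.0381). SKIDA1 was 8.73, 8.32, 8.65, 8.88 and 7.93 in MEG3-OFF NTU1 and 7.63 and 7.17 in H9, against 9.30, 9.10, 9.46 and 9.81 in MEG3-ON (-1.23 ± 0.29, adjusted p = 0.0417). DPEP3, a dipeptidase gene, was higher in MEG3-OFF NTU1 (1.89, adjusted p = 0.00388) and did not pass in H9 (0.69, adjusted p = 0.199). LMO1 and CDH6 depended on single MEG3-ON arrays as stated (0.0528 and 0.0923 without replicate 4), and IGFBP5, SKIDA1 and DPEP3 lost their calls without any of 8, 7 and 9 arrays (adjusted p = 0.0531 to 0.153, 0.0662 to 0.164 and 0.0549 to 0.181).

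H9 exceeded MEG3-OFF NTU1 most among the pooled calls in NLRP7, CHST9, FBN2, WDR72 and MRAP2. NLRP7, an oocyte gene tied to imprinting, was 7.48, 7.63, 7.71, 7.65 and 7.67 in MEG3-OFF NTU1 and 8.73 and 8.91 in H9, against 6.68, 7.27, 6.47 and 6.91 in MEG3-ON, a step between each group (H9 minus MEG3-OFF NTU1 1.19 ± 0.18, adjusted p = 0.000996). CHST9, a sulfotransferase gene, and MRAP2, an accessory protein of melanocortin receptors, had the same order of group means (1.03 ± 0.32 and 0.72 ± 0.18 between the lines, adjusted p = 0.0258 and 0.0106). FBN2, a fibrillin of elastic microfibrils, was lower in MEG3-OFF: 8.08, 7.91, 8.01, 7.54 and 7.67 in MEG3-OFF NTU1 and 8.86 and 8.78 in H9, against 9.31, 9.52, 9.17 and 9.65 in MEG3-ON, with H9 between the other 2 groups (adjusted p = 0.0642 for the pooled test without MEG3-ON replicate 4, 0.0116 with it). The pooled calls of NLRP7, CHST9 and MRAP2 were each lost without any of 8 arrays (adjusted p = 0.0615 to 0.145, 0.067 to 0.165 and 0.0594 to 0.148).

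**Figure D5:**
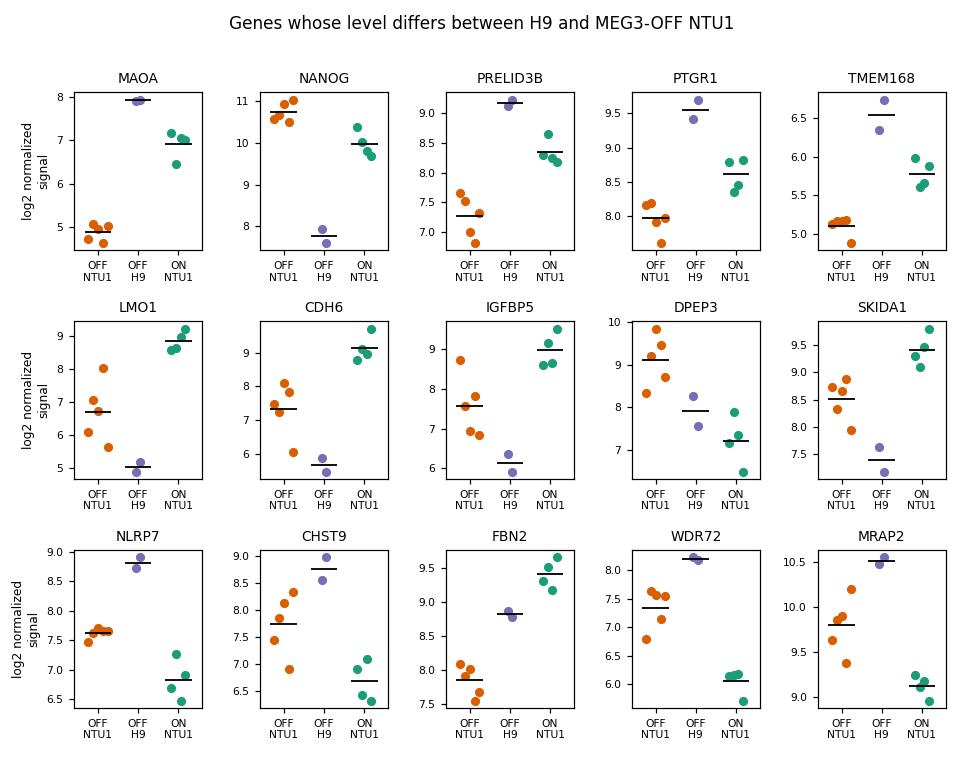
Log2 normalized signal (vertical axis, its own range in each panel) of 15 genes in which H9 and MEG3-OFF NTU1 differ, on the 5 MEG3-OFF NTU1, 2 H9 and 4 MEG3-ON arrays; points are arrays and bars are group means. The top row holds the 5 genes in which the lines lie on opposite sides of MEG3-ON, and the lower rows hold pooled calls in which H9 is below (LMO1 to SKIDA1) or above (NLRP7 to MRAP2) MEG3-OFF NTU1.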

How the data were processed

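Total RNA was labelled and hybridised to Illumina bead arrays by the authors. The non-normalized table holds a bead signal intensity per probe and array, without background subtraction or scaling, and a detection p-value as deposited by the authors. The series matrix holds intensity values that the authors normalized by quantiles over all 12 arrays, without background subtraction; the submitters' processing notes name Partek. The software behind the non-normalized export was not given in the sources used here.

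With limma's neqc, background was estimated through the detection p-values and subtracted, an offset of 16 was added, the 12 arrays were brought to common quantiles and log2 was taken (R 4.3.3, limma 3.58.1, data.table version 1.17.8; figures in Python 3.11.15 with matplotlib 3.10.9). Of 47230 probes, 30113 have 1 gene symbol, 8 several and 17109 none in the platform annotation, and 30074 were matched by Entrez ID to RefSeq for current names. Probes of 1 sex-linked group of genes (144) were left out. Each gene was represented by its probe with the highest mean over 12 arrays (6659 of 19951 genes have more than 1), detected (p under 0.01) on at least 4 of 11 arrays. Among the pooled calls, 51 had more than 1 detected probe, and in 5 of them the probes lay on both sides. A gene's bound, where no array of a group detected it, is the brighter group's mean over the dim group's detection floor. No 2 arrays shared raw signals.

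The 7 MEG3-OFF arrays were compared with the 4 MEG3-ON arrays with limma (lmFit and eBayes), p-values were adjusted over 10974 genes by Benjamini-Hochberg and called under 0.05, and each line was compared with MEG3-ON in a fit with 3 groups; every adjusted p is limma's. The scripts were tested on simulated data. Genes named are the 15 largest falls and 15 largest rises among calls on the same side in both lines and without overlap, called members of 21 gene lists, genes called in opposite directions in the 2 lines, and the 5 calls each way in which H9 and MEG3-OFF NTU1 differ most; list members that did not pass and genes adjoining called genes were added as examples. The comparison, gene lists and named genes were chosen with earlier results of these data known. Alternatives covered the background correction, normalization, offset, detection filter, probe choice, variance model, array weights, threshold, weighting of the lines and each array left out. The number of arrays limits the precision. Promoter sequences are from RefSeq.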

Additional observations from a re-analysis of the deposited data

Results flagged for a closer look

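By Dixon's gap criterion, single arrays stood apart from the rest of their group in 11 of 146 groups of named genes (7.53%). Chance alone flags about 1 in 20 independent groups, and these groups share arrays. In MEG3-OFF NTU1, replicate 6 had 4.96 for SNORD114-3 (others 4.68 to 4.74), replicate 7 had 7.48 for CHAC1 (6.91 to 7.05) and 5.87 for MAP2 (4.89 to 5.14), and replicate 9 had 5.47 for CAT (5.02 to 5.14) and 4.88 for TMEM168 (5.13 to 5.17). In MEG3-ON, replicate 1 had 13.15 for MEG3 (14.04 to 14.12), 6.37 for DKK1 (5.92 to 5.95) and 6.02 for MAP2 (6.20 to 6.23), replicate 2 had 9.14 for SNORD114-1 (8.17 to 8.32), and replicate 4 had 5.70 for WDR72 (6.14 to 6.18) and 6.33 for CEBPD (6.98 to 7.05). SNORD114-3, MAP2, CAT and TMEM168 were undetected in MEG3-OFF NTU1, so those outlying values have no measured level.

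H9 and MEG3-OFF NTU1 differed from each other, by limma's test between the 2 lines, in 22 of the 73 genes named by rule and in 8 of 39 given as examples with values. Over all genes tested the share was 33.0%. Genes called in opposite directions and calls with the largest gap between the lines were named for this difference, so the naming partly set the count of 22. Above MEG3-ON in H9 and below it in MEG3-OFF NTU1 were MAOA (H9 minus MEG3-OFF NTU1 3.03 on the log2 scale), PRELID3B (1.90), PTGR1 (1.59) and TMEM168 (1.44), and the reverse held for NANOG (-2.98). Among pooled calls H9 was lower in LMO1 (-1.68), CDH6 (-1.67), IGFBP5 (-1.45), DPEP3 (-1.20) and SKIDA1 (-1.11) and higher in NLRP7 (1.19), CHST9 (1.03), FBN2 (0.98), WDR72 (0.87) and MRAP2 (0.72). It was also lower in the pooled calls FZD2 (-1.10), CHAC1 (-0.99), FRZB (-0.94), VENTX (-0.69), UTF1 (-0.68), NLRP2 (-0.65), MAGEH1 (-0.56), SHROOM2 (-0.45) and ETV4 (-0.45), and higher in MID1 (0.49). Of the examples that did not pass the pooled test, H9 was lower in DLK1 (-2.95), DDIT4 (-1.17), CBS (-0.81) and LIN28A (-0.40) and higher in IAH1 (1.85). MAOA, TMEM168 and IAH1 were undetected in MEG3-OFF NTU1 and LMO1 in H9, so their fitted differences take in signals below background.

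Of 3896 detected probes with no gene symbol or several, which entered no comparison by gene, 21 differed between pooled MEG3-OFF and MEG3-ON (0.539%), 5 higher and 16 lower. All 21 lay on the same side in both lines, which the pooled test itself favours, as for the genes.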

How the results depend on the processing

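The 246 pooled calls became 1188 with array weights (1081 on the same side in both lines, 407 without overlap), 79 at an adjusted p under 0.01 (79 on the same side, 79 without overlap), 1014 with a separate mean for each line weighted by arrays, 1827 with the lines weighted equally, and 381 with the cell line as a random block (178 higher, 203 lower; correlation 0.481). MEG3-OFF NTU1 alone gave 377 (194 higher and 183 lower, or 51.5% higher against 41.1% in the pooled fit) and H9 alone 3020. The methods' t-test gave 494 at an unadjusted threshold with 1.5-fold and 131 after Benjamini-Hochberg. Without 1 array the counts ran from 84 to 362 for pooled calls, 84 to 362 for those on the same side and 84 to 328 for those without overlap. The 227 genes called in each line in the same direction became 457 with array weights, 77 at an adjusted p under 0.01, 104 to 393 without 1 array, and 217 with each line fitted alone. The other settings gave 198 to 261 pooled calls.

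H9 and MEG3-ON arrays share replicate numbers 1 and 2, which the labels do not link across lines. With the replicate number as a block 1519 genes were called, 165 of them among the 246, with 1 residual degree of freedom, and the numbers were not taken as pairs.

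Among values of named genes 1892 kept their direction and side of the threshold, 185 lost the call, 13 gained it and 8 turned. MAP2 turned to 0.42 with neqc on 11 arrays, where another of its probes was chosen. The rest were genes on which the lines part: with H9 alone MAOA was 1.00, PRELID3B 0.83, PTGR1 0.95 and TMEM168 0.76, with the replicate block MAOA was 1.10 and PTGR1 0.98, and with MEG3-OFF NTU1 alone NANOG was 0.77. Of 68 named pooled calls, 43 were kept without each of the 11 arrays in turn. Over all genes the median difference stayed between -0.033 and 0.018 in every setting. Signals near background limit the snoRNA, DKK1 and SIX3 values to bounds.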
